A study of Rattus norvegicus with 18 samples.

Results

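The genes described here are the xenobiotic cytochrome P450 enzymes of families 1 to 3 in rat liver. They were chosen by symbol alone: every gene whose symbol begins with Cyp1a, Cyp1b or Cyp3a, or with Cyp2 followed by a letter, except Cyp2c11 and Cyp2e1. The rule gave 58 symbols in the RefSeq rat gene table, of which 50 were protein coding. A probe on the array matched 37 of them, out of 15645 genes matched in all, and 33 of the 37 were bright enough to be tested among 10914 genes. Total RNA came from the livers of male F344/NSlc rats, bought at 5 weeks of age and kept on a basal diet. N-nitrosodiethylamine (DEN), a nitrosamine that alkylates DNA, was given by daily gavage at 4 mg/kg in saline. Carbon tetrachloride (CCl4), a solvent that damages hepatocytes, was given the same way at 100 mg/kg in corn oil, both in 5 mL/kg. Control rats received the basal diet, and their sample titles call them vehicle although the treatment protocol calls them untreated, so neither saline nor corn oil alone can be told apart from the compound it carried. Livers were taken at day 28 and day 84, which makes 6 groups of 3 arrays each. The labels do not say whether an array held RNA of a single rat, and p-values measure the spread between these samples.

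Cytochrome P450 enzymes are haem proteins of the endoplasmic reticulum that oxidise lipid-soluble drugs, toxins, steroids and fatty acids with electrons from the reductase Por. Families 1 to 3 carry most drug metabolism in liver, and hepatocytes, above all those around the central vein, hold most of them. The 1A and 1B genes are classical targets of the aryl hydrocarbon receptor, whereas the 2B, several 2C and the 3A genes answer to the nuclear receptors CAR (Nr1i3) and PXR (Nr1i2). In rats a further set of 2A, 2C and 3A genes depends on sex, because male and female livers receive growth hormone in different patterns.

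Promoters are shown for the 3 genes called higher in every treated group, Cyp2c24, Cyp2c12 and Cyp3a62, and for Cyp3a9, which fell furthest. Each run holds the 250 bases before the RefSeq start of the gene in the GRCr8 assembly, 5′ to 3′ on the gene's own strand, and capitals mark the hexamer AGTTCA or its reverse complement, one of the hexamers that CAR and PXR bind. The Cyp2c24 window lies on the plus strand at chr1:246286091-246286340 and the Cyp2c12 window on the minus strand at chr1:248677035-248677284. The Cyp3a62 window lies on the plus strand at chr12:21511513-21511762 and the Cyp3a9 window on the minus strand at chr12:21960161-21960410.
Cyp2c24: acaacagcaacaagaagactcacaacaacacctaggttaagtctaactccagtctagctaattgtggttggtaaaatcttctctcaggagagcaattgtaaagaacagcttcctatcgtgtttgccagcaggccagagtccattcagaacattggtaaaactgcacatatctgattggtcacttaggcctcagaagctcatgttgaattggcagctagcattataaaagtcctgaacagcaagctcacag
Cyp2c12: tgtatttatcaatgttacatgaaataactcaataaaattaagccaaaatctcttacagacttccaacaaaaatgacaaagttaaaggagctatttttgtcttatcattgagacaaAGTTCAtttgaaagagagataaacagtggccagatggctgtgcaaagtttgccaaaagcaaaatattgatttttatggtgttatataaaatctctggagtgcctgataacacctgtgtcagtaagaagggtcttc
Cyp3a62: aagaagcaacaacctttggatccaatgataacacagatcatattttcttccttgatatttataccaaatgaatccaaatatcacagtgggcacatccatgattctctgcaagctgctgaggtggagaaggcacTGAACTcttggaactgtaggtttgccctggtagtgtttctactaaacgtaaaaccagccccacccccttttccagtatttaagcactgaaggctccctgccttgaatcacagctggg
Cyp3a9: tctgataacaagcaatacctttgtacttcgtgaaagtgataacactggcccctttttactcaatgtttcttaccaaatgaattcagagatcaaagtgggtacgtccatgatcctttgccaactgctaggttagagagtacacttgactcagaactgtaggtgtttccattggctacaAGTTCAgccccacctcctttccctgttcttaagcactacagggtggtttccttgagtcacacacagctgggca

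The Cyp2c24 window held none of the motifs searched, and Cyp2c12, Cyp3a62 and Cyp3a9 each held 1 AGTTCA. Windows were available for 34 of the 37 genes. Read on both strands, AGTTCA was present in 29.4% of these 34 windows and in 12.2% of all 33465 promoter windows of the same length. The related hexamer AGGTCA was present in 29.4% against 14.1%, and the core GCGTG bound by the aryl hydrocarbon receptor in 14.7% against 25.9%. Direct repeats of AGGTCA with 3 or 4 bases between them were found in 0 of the 34 windows, and in 0.0209% and 0.00299% of all windows. The palindrome TTCNNNGAA, bound by STAT5, was found in 5.88% of the P450 windows and in 7.67% of all. Genes of one subfamily share sequence, so these windows are not independent of each other. The Cyp3a62 and Cyp3a9 windows, whose genes moved in opposite directions, were identical at 72.4% of the window after alignment with gaps, and at 29.2% without gaps. After alignment, pairs within a subfamily ranged from 53.2% (Cyp2c13 and Cyp2c23) to 90.4% (Cyp2d1 and Cyp2d3).

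Levels are log2 signals of a probe minus the 75th percentile of its array, so a level of 0 is the 75th percentile, and levels of different probes are not compared. Differences are log2 differences ± standard error from limma with 3 arrays per group, a gene is called at an adjusted p under 0.05 over all genes tested, and a probe is detected on an array where the scanner software marked it well above background. The spread of each gene was estimated over all 6 groups together, so every array enters the standard errors of all comparisons. Leaving out an array of a group not compared keeps a difference unchanged and moves only its standard error and adjusted p. Between 47.2% and 57.0% of probes were detected on an array. The scale itself differed between groups. Relative to 8 spike-in probes, the 75th percentile lay 0.41, 0.80, 0.70 and 0.55 log2 units above the controls with DEN at day 28, CCl4 at day 28, DEN at day 84 and CCl4 at day 84. All changes below are relative to that percentile, and under spike-in scaling the median over all genes moved from -0.04, -0.06, -0.08 and -0.10 to 0.36, 0.74, 0.63 and 0.45 in the same order. Of the 13 hepatocyte markers such as Alb, all were tested, and their summed level was 13.42 to 13.46 in day 28 controls. In treated livers of that day it was 13.13 to 13.16 (DEN) and 12.36 to 12.72 (CCl4). At day 84 it was 13.16 to 13.21 in controls, 12.39 to 12.62 with DEN and 12.49 to 12.91 with CCl4. In whole liver, fewer hepatocytes and less RNA per hepatocyte cannot be told apart.

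A pair of arrays stood apart from their groups. Replicate 2 of CCl4 at day 28 was the lowest array of its group for 27 of the 33 genes, with a hepatocyte marker sum of 12.36 against 12.72 in both others and a stellate cell marker sum of 7.66 against 6.79 and 6.78. Replicate 2 of DEN at day 84 was the lowest for 28 of the 33 genes, with a hepatocyte sum of 12.39 against 12.56 and 12.62. The part of these differences in the P450 values was not tested, and counts are given with and without both arrays. Slide 1 held the day 28 arrays except replicate 3 of CCl4. Slide 2 held that array, the day 84 control and DEN arrays and replicate 1 of CCl4 at day 84, and slide 3 held the other two CCl4 arrays of day 84.

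On the percentile scale, most of the P450 genes tested were called lower than control with CCl4 at both days and with DEN at day 84, and a group of 3 was called higher throughout. With CCl4 at day 28, 21 of 33 genes fell and 4 rose, against a background of 33.6% of all genes called lower and 26.1% called higher. At day 84, CCl4 lowered 20 and raised 6, with backgrounds of 36.3% and 28.0%. The 6 include Cyp1b1, which entered the test only through that group, so its call is a description. DEN lowered 20 and raised 4 at day 84, where 31.1% of all genes were called lower and 21.6% higher. At day 28, DEN lowered 5 and raised 3, with 7.19% of all genes called lower and 7.82% higher. The median difference over the 33 genes at day 28 was -0.35 for DEN and -0.90 for CCl4. At day 84 it was -0.72 for DEN and -0.71 for CCl4. The number of falls depended on the scale.

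Relative to the spike-in probes the same 33 genes gave 3 rises and 0 falls with DEN at day 28, 8 and 10 with CCl4 at day 28, 5 and 3 with DEN at day 84, and 8 and 11 with CCl4 at day 84. Their medians on that scale were 0.056, -0.10, -0.018 and -0.16. Both counts of 8 rises with CCl4 include Cyp1b1, from whose call nothing is read. With both low arrays left out, the counts on the percentile scale were 3 rises and 19 falls for DEN at day 28, 5 and 19 for CCl4 at day 28, 4 and 20 for DEN at day 84, and 6 and 22 for CCl4 at day 84. The rise from 8 to 22 calls for DEN at day 28 came without a change in its own arrays or controls. Its log2 differences were therefore unchanged, and only their standard errors and adjusted p, which rest on the spread over all groups, moved.

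**Figure D1:**
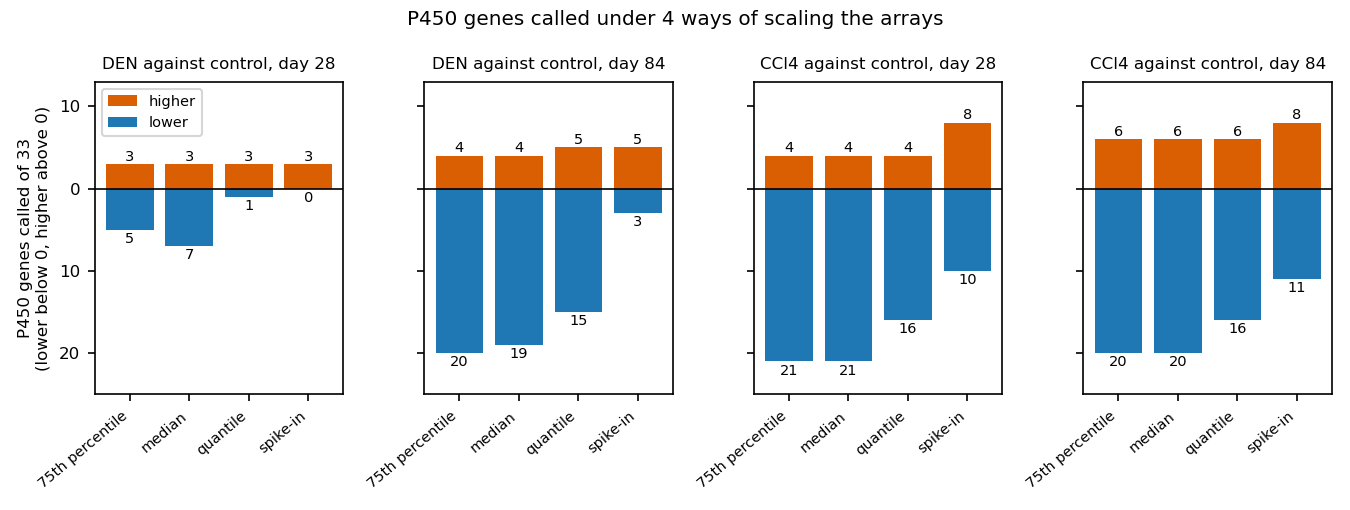
Number of the 33 P450 genes called higher (above 0) and lower (below 0) than the control of the same day under each of 4 ways of scaling the arrays, 1 panel per comparison. Falls went from 21 to 10 with CCl4 at day 28 and from 20 to 3 with DEN at day 84 between the 75th percentile and spike-in scales, while rises did not become fewer.

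CCl4 at day 84 was the group spread most unevenly over slides. With the slide as a block, 4 genes rose and 14 fell there, and within slide 2 alone, with 1 CCl4 array, 3 rose and 16 fell. The calls lost under the block were those of 8 genes, whose log2 differences were then Cyp1a2 -0.70, Cyp1b1 0.72, Cyp2b1 -0.57, Cyp2b21 -0.50, Cyp2c23 -0.47, Cyp2j4 0.18, Cyp2r1 -0.25 and Cyp3a23-3a1 -0.78.

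Cyp2c12, Cyp2c24 and Cyp3a62 were called higher in all 4 treated groups. Cyp2b3, Cyp2b21, Cyp2f4 and Cyp2t1 were called lower in all 4 on the percentile scale, and on the spike-in scale none of them was called with DEN at day 28. Of these, Cyp2b3 and Cyp2b21 are uncertain as separate genes, because their probes tracked each other. A further 13 genes fell in 3 of the 4 comparisons, missing the threshold with DEN at day 28 in each case. Cyp2b12, Cyp2b15 and Cyp2s1 were called in none. The shares of all genes with these patterns were not counted, so the patterns describe these genes alone.

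**Figure D2:**
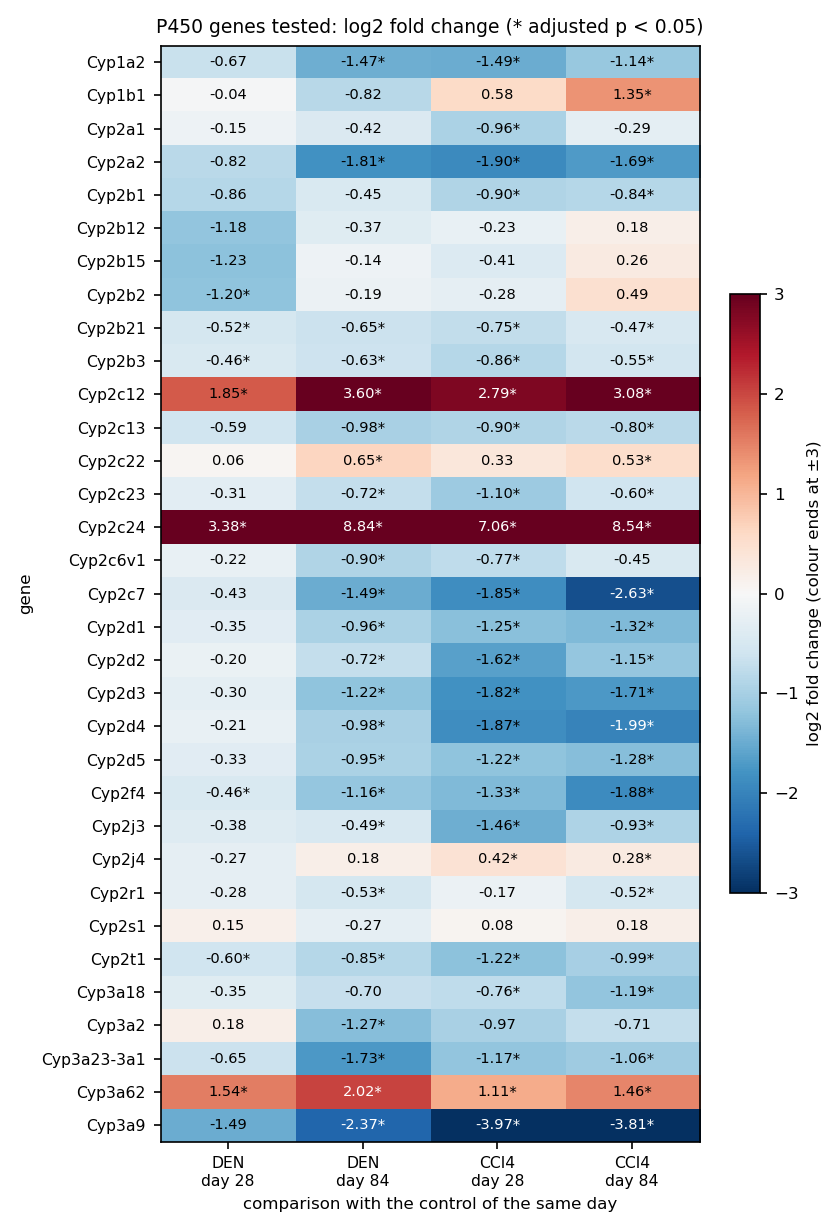
Log2 differences from the control of the same day for the 33 P450 genes (rows) in the 4 treated groups (columns), on the 75th percentile scale, with colour ending at ±3 and an asterisk at an adjusted p under 0.05. The 3 rows called higher in every column are Cyp2c12, Cyp2c24 and Cyp3a62, and Cyp3a9 has the lowest values, -3.97 and -3.81 with CCl4.

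Cyp2c24 is a 2C gene that lies next to the male-specific Cyp2c11 on chromosome 1. It had the largest differences of the 33 genes, going from near the background in controls to well detected in every treated array. At day 28 its levels were -3.13, -3.68 and -4.32 in controls, -0.42, -0.32 and -0.26 with DEN and 3.37, 3.62 and 3.07 with CCl4. Day 84 levels were -6.06, -5.94 and -5.56 in controls, 2.95, 3.47 and 2.55 with DEN and 2.7, 2.61 and 2.75 with CCl4. No treated array overlapped a control array, and at day 28 all CCl4 arrays lay above all DEN arrays. The probe was detected in 1 of 3 controls at day 28, in 0 of 3 controls at day 84 and in all treated arrays. The difference was 3.38 ± 0.27 with DEN (10.4-fold, adjusted p = 1.53e-06) and 7.06 with CCl4 (134-fold, adjusted p = 2.26e-09) at day 28, both over controls of which 1 of 3 was detected. At day 84, against the lowest signal detected on the control arrays, it was at least 108-fold higher with DEN and at least 87.2-fold higher with CCl4 (adjusted p = 5.03e-11 and 1.64e-10). A second probe of the gene gave log2 differences of 2.86 to 6.32 over the 4 comparisons. Cyp2c11 itself differed from control by -0.79 and -5.4 at day 28 and by -1.93 and -8.27 at day 84 with DEN and CCl4, of which both CCl4 values were called.

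Cyp2c12 encodes the steroid sulphate hydroxylase known as the female-specific P450 of rat liver. These rats were male, and the gene rose in all treated groups. Controls at day 28 had levels of 1.12, 1.24 and 1.21, against 2.98, 3.17 and 2.96 with DEN and 4.01, 4.06 and 3.88 with CCl4. At day 84 controls had 0.71, 0.80 and 0.34, DEN 4.1, 4.51 and 4.04 and CCl4 4.05, 3.44 and 3.59. Treated and control arrays did not overlap at either day. The differences were 1.85 with DEN and 2.79 with CCl4 at day 28, or 3.6-fold and 6.93-fold, and 3.6 and 3.08 at day 84, or 12.2-fold and 8.45-fold (each ± 0.16, adjusted p from 2.55e-09 to 4.2e-06). The probe was detected on all 18 arrays.

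Cyp3a62 is a gene of the 3A subfamily, detected on all 18 arrays. Its levels at day 28 were 0.59, 0.94 and -0.03 in controls, 2.12, 2.07 and 1.93 with DEN and 1.37, 2.38 and 1.09 with CCl4. At day 84 they were 0.49, -0.02 and 0.29 in controls, 2.3, 2.13 and 2.38 with DEN and 1.91, 1.74 and 1.49 with CCl4. All treated arrays lay above the controls of their day, and the highest CCl4 value at day 28 was that of replicate 2, the array that was low for most other genes. The gene rose by 1.54 (DEN) and 1.11 (CCl4) at day 28 and by 2.02 and 1.46 at day 84 (each ± 0.28, adjusted p from 7.1e-05 to 0.00398). Without replicate 2 of CCl4 at day 28 its rise there was 0.73 and still called (adjusted p = 0.0171).

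**Figure D3:**
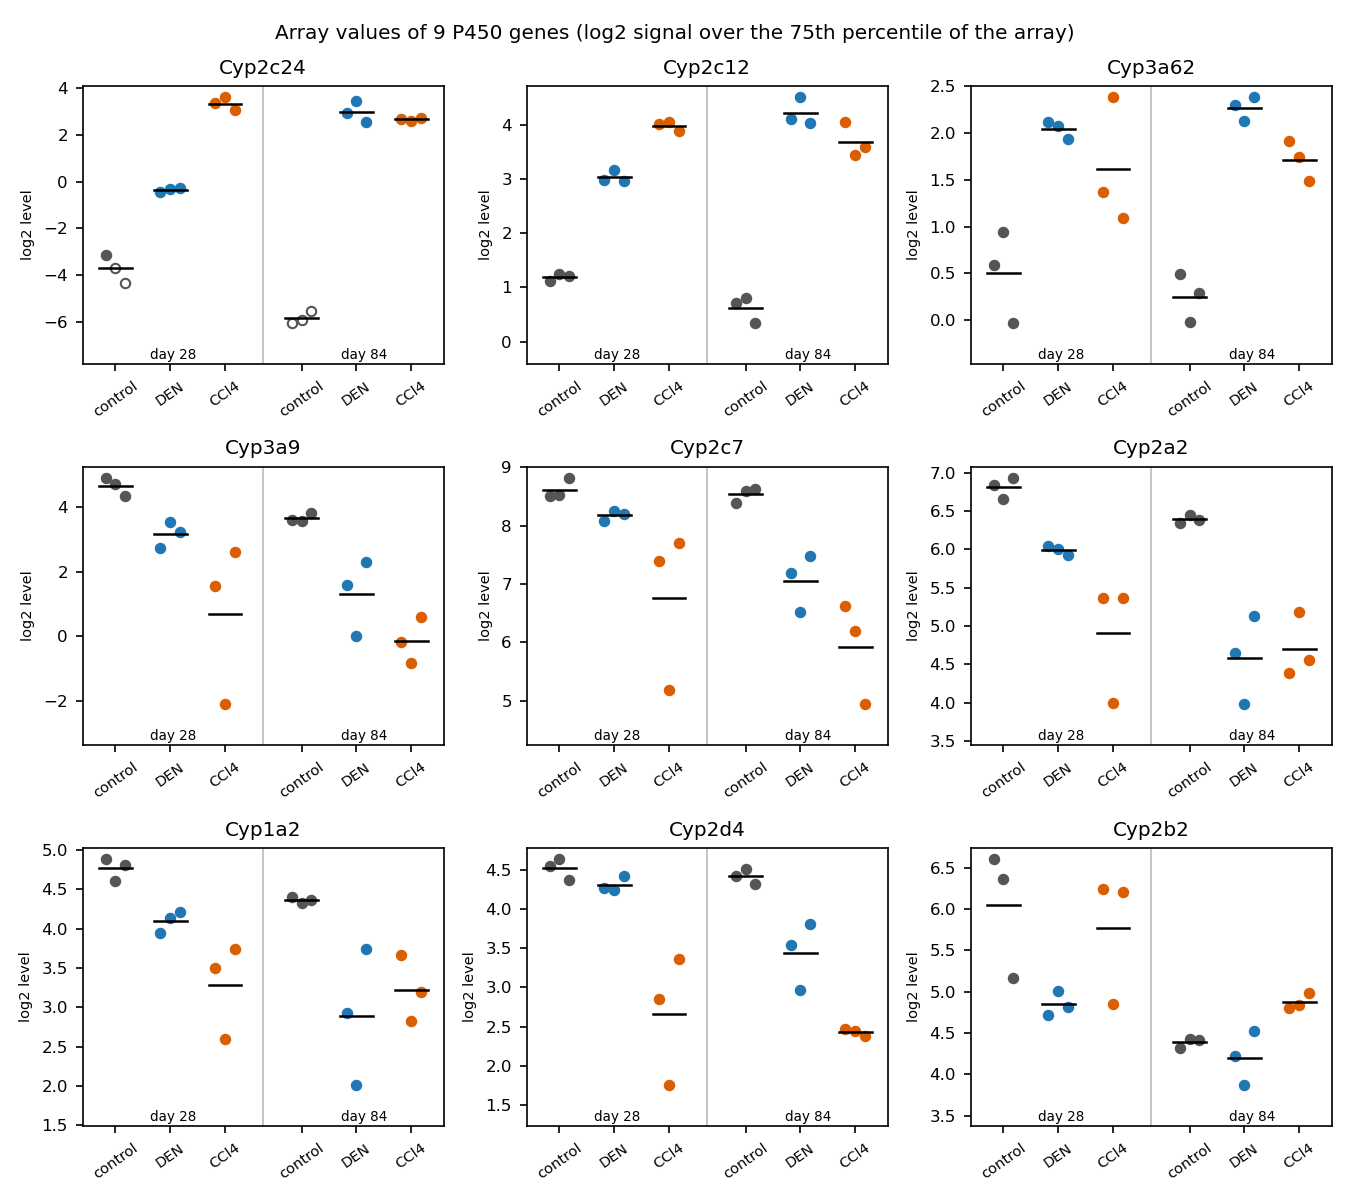
Levels of 9 P450 genes on each of the 18 arrays, as log2 signal over the 75th percentile of the array, with 1 panel per gene and its own vertical scale. Points are arrays, lines are group means, and open points were not well above background. Cyp2c24 went from -3.71 in controls to 3.35 with CCl4 at day 28, and in the Cyp3a9 panel 1 CCl4 array of day 28 lies at -2.11, below all others.

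The remaining 2C genes mostly fell. Cyp2c7, a retinoid hydroxylase more abundant in female liver, had levels of 8.5, 8.52 and 8.81 in controls, 8.08, 8.25 and 8.2 with DEN and 7.4, 5.18 and 7.7 with CCl4 at day 28. At day 84 the levels were 8.39, 8.6 and 8.63 in controls, 7.18, 6.52 and 7.47 with DEN and 6.62, 6.19 and 4.94 with CCl4. The treated arrays were below all controls of their day, and CCl4 replicate 2 at day 28 and CCl4 replicate 3 at day 84 were far below the rest. Cyp2c7 fell by 1.85 with CCl4 at day 28, by 1.49 with DEN and by 2.63 with CCl4 at day 84 (each ± 0.53, adjusted p = 0.00812, 0.03 and 6.49e-04). Without the low CCl4 array of day 28 the difference there was -1.06 (adjusted p = 0.0301), and the day 84 call with DEN was lost without any 1 of 5 arrays. Of these falls, that with CCl4 at day 84 alone stayed called relative to the spike-ins, at -2.08.

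Cyp2c23, an arachidonic acid epoxygenase, had levels of 8.83, 8.71 and 8.88 in controls, 8.48, 8.54 and 8.47 with DEN and 7.87, 7.34 and 7.91 with CCl4 at day 28. Levels at day 84 were 8.51, 8.48 and 8.6 in controls, 7.72, 7.61 and 8.09 with DEN and 8.06, 8.01 and 7.72 with CCl4. Treated arrays lay below all controls on both days. It fell by 1.1 with CCl4 at day 28 and by 0.72 with DEN and 0.60 with CCl4 at day 84 (each ± 0.15, adjusted p = 2.92e-05, 0.00115 and 0.0026). The difference with DEN at day 28, -0.31, missed the threshold (95% interval -0.63 to 0.0084). Over the spike-in probes the 3 falls were -0.30, -0.021 and -0.054, and none was called. Cyp2c13, a male-specific steroid hydroxylase, fell by 0.80 to 0.98 in the same 3 comparisons, and Cyp2c6v1, found in both sexes, by 0.77 with CCl4 at day 28 and 0.90 with DEN at day 84. The Cyp2c13 fall with CCl4 at day 28 was -0.54 and that of Cyp2c6v1 -0.51 without the low array, both still called. On the spike-in scale neither gene was called in any of these comparisons, and the Cyp2c6v1 difference with CCl4 at day 28 turned positive. Cyp2c22, a retinoic acid hydroxylase, went the other way at day 84, with rises of 0.65 with DEN and 0.53 with CCl4 (adjusted p = 0.0216 and 0.045), and the calls were lost without any 1 of 3 and any 1 of 13 arrays.

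The 3A subfamily split between 1 rise and 3 falls in each comparison other than DEN at day 28, against 1 rise and 1, 1 and 2 falls on the spike-in scale. Cyp3a9, a form more abundant in female liver, fell furthest of the 33 genes. Its levels at day 28 were 4.9, 4.72 and 4.36 in controls, 2.75, 3.53 and 3.24 with DEN and 1.57, -2.11 and 2.61 with CCl4. At day 84 they were 3.61, 3.57 and 3.83 in controls, 1.6, 0.00 and 2.31 with DEN and -0.18, -0.83 and 0.60 with CCl4. Every treated array was below the controls of its day, but the CCl4 arrays of day 28 and the DEN arrays of day 84 were widely spread, with replicate 2 lowest in both. With CCl4 it fell by 3.97 ± 0.89 at day 28 and by 3.81 at day 84, or 15.7-fold and 14-fold (adjusted p = 0.00157 and 0.00186), and both calls held on the spike-in scale at -3.17 and -3.26. Without the low array the fall at day 28 was -2.58 (adjusted p = 0.00187). With DEN it fell by 2.37 at day 84 (adjusted p = 0.0372), a call lost without any 1 of 5 arrays and on the spike-in scale (-1.67), and the day 28 value of -1.49 missed the threshold (95% interval -3.39 to 0.42).

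Cyp3a23-3a1, the 3A form strongly induced by dexamethasone and other PXR ligands, had levels of 6.51, 6.64 and 6.35 in controls, 5.82, 6.0 and 5.75 with DEN and 5.79, 4.2 and 5.99 with CCl4 at day 28. At day 84 the levels were 6.62, 6.55 and 6.62 in controls, 5.07, 4.03 and 5.5 with DEN and 5.82, 5.32 and 5.48 with CCl4. No treated array reached the controls of its day. It fell by 1.73 ± 0.40 with DEN at day 84 (adjusted p = 0.00251), and this held on the spike-in scale at -1.03. The CCl4 falls were -1.17 at day 28 and -1.06 at day 84 (adjusted p = 0.0199 and 0.0301). The first was -0.61 and not called without replicate 2 of its group (adjusted p = 0.106), and was also lost without replicate 2 of the controls. The second was lost without any 1 of 5 day 84 arrays. Relative to spike-ins they were -0.37 and -0.51, and neither was called.

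Cyp3a2 and Cyp3a18 are testosterone hydroxylases more abundant in male liver. Cyp3a2 had levels of 6.94, 7.43 and 6.96 in controls, 7.22, 7.56 and 7.09 with DEN and 6.59, 5.06 and 6.78 with CCl4 at day 28, and 7.87, 7.2 and 7.59 in controls, 6.58, 5.19 and 7.09 with DEN and 6.65, 6.89 and 7.0 with CCl4 at day 84. Replicate 2 was by far the lowest array with CCl4 at day 28 and with DEN at day 84. Only the fall of 1.27 ± 0.45 with DEN at day 84 was called (adjusted p = 0.0302), and without replicate 2 of DEN it was -0.72 and not called (adjusted p = 0.164). The call was also lost without replicate 1 or 3 of the day 84 controls, and on the spike-in scale (-0.56). Cyp3a18 levels at day 28 were 7.15, 7.41 and 7.0 in controls, 6.87, 6.91 and 6.72 with DEN and 6.83, 5.6 and 6.86 with CCl4, and at day 84 they were 6.78, 6.9 and 6.87 in controls, 6.28, 5.63 and 6.55 with DEN and 5.18, 5.94 and 5.87 with CCl4. All Cyp3a18 arrays of treated rats were below the controls of their day. CCl4 lowered Cyp3a18 by 1.19 ± 0.31 at day 84 (adjusted p = 0.00375, -0.64 on the spike-in scale, still called). Its fall of 0.76 with CCl4 at day 28 (adjusted p = 0.0456) was lost without any 1 of 12 arrays and was -0.34 without the low array.

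All 5 genes of the 2D subfamily fell with CCl4 at both days and with DEN at day 84, and none was called with DEN at day 28. The 5 genes are neighbours on chromosome 7 in the order Cyp2d4, Cyp2d5, Cyp2d1, Cyp2d3 and Cyp2d2. Cyp2d1, the debrisoquine hydroxylase, had levels of 9.13, 9.22 and 8.86 in controls, 8.72, 8.78 and 8.67 with DEN and 8.05, 7.31 and 8.11 with CCl4 at day 28, and 9.01, 8.96 and 8.83 in controls, 8.01, 7.67 and 8.23 with DEN and 7.49, 7.85 and 7.49 with CCl4 at day 84. Its falls were 1.25 with CCl4 at day 28, 0.96 with DEN and 1.32 with CCl4 at day 84 (each ± 0.19, adjusted p from 4.31e-05 to 9.66e-04). The probe of Cyp2d5 read 9.11, 9.2 and 8.84 in controls, 8.73, 8.74 and 8.68 with DEN and 8.01, 7.36 and 8.11 with CCl4 at day 28 and 8.93, 9.02 and 8.84 in controls, 8.01, 7.71 and 8.21 with DEN and 7.53, 7.86 and 7.54 with CCl4 at day 84. On all 18 arrays it was within 0.077 of the Cyp2d1 probe, so the values of these near-identical paralogs are uncertain as separate genes.

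Cyp2d2 levels were 6.65, 6.7 and 6.31 in controls, 6.3, 6.43 and 6.32 with DEN and 5.38, 4.09 and 5.32 with CCl4 at day 28, and 6.13, 6.33 and 6.21 in controls, 5.58, 5.07 and 5.87 with DEN and 5.06, 5.21 and 4.95 with CCl4 at day 84. DEN and control arrays of Cyp2d2 overlapped at day 28, and CCl4 arrays did not overlap controls on either day. Cyp2d3 levels were 6.4, 6.36 and 6.15 in controls, 6.0, 6.0 and 6.0 with DEN and 4.9, 3.67 and 4.88 with CCl4 at day 28 and 6.02, 6.14 and 6.06 in controls, 4.96, 4.32 and 5.28 with DEN and 4.26, 4.53 and 4.29 with CCl4 at day 84. With CCl4 these genes fell by 1.62 and 1.82 at day 28 and by 1.15 and 1.71 at day 84 (each ± 0.27, adjusted p from 7.62e-05 to 0.00219). Cyp2d4, the form best known from brain, had 4.55, 4.64 and 4.38 in controls, 4.27, 4.25 and 4.42 with DEN and 2.85, 1.75 and 3.37 with CCl4 at day 28, and 4.43, 4.51 and 4.32 in controls, 3.54, 2.97 and 3.81 with DEN and 2.47, 2.44 and 2.38 with CCl4 at day 84. It had the largest CCl4 falls of the subfamily, 1.87 and 1.99 (each ± 0.30, adjusted p = 1.09e-04 and 5.35e-05). Both CCl4 falls of all 5 genes stayed called on the spike-in scale, where they were -0.42 to -1.44, while the 5 DEN falls of day 84, -0.72 to -1.22, were -0.018 to -0.52 there and not called. The DEN call of Cyp2d2 at day 84 was lost without any 1 of 5 arrays and that of Cyp2d4 without replicate 2 of DEN, where it was -0.75.

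Cyp1a2, which oxidises caffeine and aryl amines, fell in 3 of the 4 comparisons. Its levels at day 28 were 4.88, 4.61 and 4.81 in controls, 3.94, 4.13 and 4.21 with DEN and 3.5, 2.59 and 3.74 with CCl4. Day 84 levels were 4.4, 4.33 and 4.36 in controls, 2.93, 2.01 and 3.74 with DEN and 3.66, 2.82 and 3.19 with CCl4. Treated arrays were below all controls of their day. The falls were 1.49 with CCl4 at day 28, 1.47 with DEN and 1.14 with CCl4 at day 84 (each ± 0.36, adjusted p = 0.00268, 0.00373 and 0.0126), and -0.69, -0.77 and -0.59 on the spike-in scale, where none was called. The last was lost without replicate 2 of CCl4 at day 84 (-0.94). A second probe of the gene gave -1.53, -1.38 and -0.90. Cyp1b1, an aryl hydrocarbon receptor target made mostly outside hepatocytes, was detected only with CCl4 at day 84, on 3 of 3 arrays and on 0 of the 15 others. Its signals there were -4.38, -3.38 and -3.51, against -4.41, -5.33 and -5.57 in controls and -5.22, -6.1 and -6.47 with DEN. At day 28 they were -5.38, -5.63 and -5.95 in controls, -6.37, -5.02 and -5.71 with DEN and -5.63, -4.2 and -5.4 with CCl4. Against the lowest signal detected on the day 84 control arrays it was at least 1.003-fold higher with CCl4 (adjusted p = 0.019). The gene entered the test only through the group where it is high, so this call is a description. The call was lost without any 1 of 4 arrays, a second probe gave a log2 difference of 2.52, and with normexp background correction the difference was -0.010. Summed stellate cell markers stood beside it at 6.87 to 7.52 with CCl4 and at 4.78 to 5.01 in controls at day 84, and their part in the result was not tested. Cyp1a1, the most inducible target of the aryl hydrocarbon receptor and the neighbour of Cyp1a2, was not tested, because its probe was detected on 1 of 18 arrays.

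The 2A, 2F and 2T genes lie in a row on chromosome 1 in the order Cyp2a1, Cyp2a2, Cyp2f4 and Cyp2t1. Cyp2a2, a male-specific testosterone hydroxylase, had levels of 6.84, 6.66 and 6.93 in controls, 6.05, 6.0 and 5.93 with DEN and 5.36, 3.99 and 5.37 with CCl4 at day 28, and 6.34, 6.45 and 6.39 in controls, 4.65, 3.98 and 5.13 with DEN and 4.38, 5.18 and 4.55 with CCl4 at day 84. Treated and control arrays did not overlap. It fell by 1.9 with CCl4 at day 28, by 1.81 with DEN and by 1.69 with CCl4 at day 84 (each ± 0.34, adjusted p from 2.56e-04 to 5.81e-04), and all 3 falls stayed called on the spike-in scale at -1.1, -1.11 and -1.14. Its paralog Cyp2a1, another testosterone hydroxylase, fell with CCl4 at day 28 alone, by 0.96 ± 0.19 (adjusted p = 6.76e-04), and on the spike-in scale it was -0.16 and not called.

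Cyp2f4, which oxidises naphthalene in the airway, kept controls, DEN and CCl4 apart on both days. Its levels at day 28 were 6.18, 6.15 and 6.13 in controls, 5.65, 5.77 and 5.65 with DEN and 5.0, 4.47 and 4.99 with CCl4, and at day 84 they were 6.15, 6.04 and 5.99 in controls, 4.9, 4.79 and 5.02 with DEN and 4.01, 4.37 and 4.16 with CCl4. The 3 groups of each day did not overlap, with controls highest and CCl4 lowest. It fell by 0.46 (DEN) and 1.33 (CCl4) at day 28 and by 1.16 and 1.88 at day 84 (each ± 0.13, adjusted p from 8.74e-08 to 0.0266). On the spike-in scale the falls other than DEN at day 28 stayed called, at -0.53, -0.46 and -1.33, and the DEN call of day 28 was lost without any 1 of 5 arrays. Cyp2t1 had levels of 4.47, 4.45 and 4.31 in controls, 3.58, 4.08 and 3.77 with DEN and 3.37, 2.89 and 3.3 with CCl4 at day 28, and 3.89, 3.87 and 3.95 in controls, 3.05, 2.92 and 3.18 with DEN and 2.79, 3.06 and 2.9 with CCl4 at day 84. No treated array reached the controls of its day. Cyp2t1 fell by 0.60 and 1.22 at day 28 and by 0.85 and 0.99 at day 84 with DEN and CCl4 (each ± 0.14, adjusted p from 6.73e-06 to 0.0114). Its call with DEN at day 28 was lost without replicate 1 of DEN (adjusted p = 0.0619). Its CCl4 falls stayed called on the spike-in scale at -0.42 and -0.44, and its DEN falls did not.

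The 2B subfamily holds the main targets of phenobarbital, and none of its 6 tested genes rose in any treated group on the percentile scale, while 1 of them did with CCl4 at day 84 on the spike-in scale. Cyp2b2, an archetypal CAR target, had levels of 6.6, 6.36 and 5.17 in controls, 4.72, 5.01 and 4.82 with DEN and 6.24, 4.85 and 6.21 with CCl4 at day 28, and 4.32, 4.43 and 4.41 in controls, 4.22, 3.87 and 4.52 with DEN and 4.8, 4.84 and 4.98 with CCl4 at day 84. The day 28 controls and CCl4 arrays each held 1 array more than 1 log2 unit below the others, and CCl4 at day 84 lay above the controls in all arrays without a call. These levels are those of the brightest Cyp2b2 probe. Its 5 kept probes gave log2 differences of 0.14 to 1.45 with CCl4 and -0.31 to 0.50 with DEN at day 84. The fall of 1.2 ± 0.36 with DEN at day 28 (adjusted p = 0.0398) was lost without any 1 of 11 arrays, with adjusted p up to 0.137, and was -0.79 and not called on the spike-in scale. Probes of Cyp2b12 and Cyp2b15 tracked the Cyp2b2 probe across the 18 arrays, with centred differences of at most 0.33 and 0.49, so these paralogs are uncertain as separate genes. Neither gene was called against control, with adjusted p = 0.0557 and 0.05 (above the threshold before rounding) for DEN at day 28. Cyp2b1 fell by 0.90 and 0.84 with CCl4 at day 28 and day 84 (adjusted p = 0.0142 and 0.0181). Its day 28 call was lost without replicate 1 of the controls or replicate 2 of CCl4 (-0.54), and its day 84 call without replicate 3 of CCl4. Relative to spike-ins both values, -0.099 and -0.29, were not called.

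Cyp2b3, which is constitutive and does not answer to phenobarbital, fell by 0.46 to 0.86 and Cyp2b21 by 0.47 to 0.75 over the 4 comparisons. Their probes also tracked each other, with centred differences of at most 0.23, so these paralogs are uncertain as separate genes too. Both calls with DEN at day 28 lay near the threshold (adjusted p = 0.0464 and 0.0493) and were lost without any 1 of 14 and any 1 of 16 arrays. Some of these arrays were of groups not compared. Without any of those the differences stayed -0.46 and -0.52, with limma adjusted p of at most 0.0600 and 0.0631. On the spike-in scale no fall of either gene was called, the Cyp2b21 values turned positive in the other 3 comparisons, and those of Cyp2b3 turned positive at day 84. The Cyp2b21 fall with CCl4 at day 28 was -0.47 without the low array, still called, and its fall with CCl4 at day 84 was lost without any 1 of 4 arrays.

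Cyp2j3 and Cyp2j4 are neighbouring genes of arachidonic acid epoxygenases. Cyp2j3 had levels of 5.41, 5.44 and 5.67 in controls, 5.05, 5.1 and 5.25 with DEN and 4.38, 3.44 and 4.32 with CCl4 at day 28, and 5.02, 5.03 and 5.06 in controls, 4.56, 4.28 and 4.81 with DEN and 4.02, 4.21 and 4.09 with CCl4 at day 84. Treated arrays were below the controls of their day throughout. Cyp2j3 fell by 1.46 with CCl4 at day 28 and by 0.93 at day 84 (each ± 0.20, adjusted p = 2.99e-05 and 8.96e-04), of which the first stayed called on the spike-in scale (-0.66) and the second did not (-0.38). The DEN value of day 84, -0.49, was called at an adjusted p of 0.0493, was lost without any 1 of 14 arrays and turned positive on the spike-in scale. Cyp2j4 rose by 0.42 ± 0.087 with CCl4 at day 28 and by 0.28 at day 84 (adjusted p = 8.52e-04 and 0.0114), and the second call was lost without replicate 2 of CCl4. Cyp2r1, which hydroxylates vitamin D, fell by 0.53 with DEN and by 0.52 with CCl4 at day 84 (adjusted p = 0.00751 and 0.00626), and both values turned positive on the spike-in scale. Cyp2s1, an epithelial form, ranged from -0.27 to 0.18 over the 4 comparisons with no call. Cyp2a3, Cyp2g1 and Cyp2j10 were not tested, since their probes were detected on at most 1 of 18 arrays.

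Grouped by known control, the genes did not all move one way. Of the 4 genes listed as female-predominant, Cyp2a1, Cyp2c7, Cyp2c12 and Cyp3a9, 1 rose and 3 fell with CCl4 at day 28, and 1 rose and 2 fell with each compound at day 84, Cyp2c12 being the rise each time, while with DEN at day 28 Cyp2c12 rose and 0 fell. The list is not complete for the 33 genes. Relative to spike-ins the rises and falls of these genes were 1 and 0 (DEN) and 1 and 1 (CCl4) at day 28, then 1 and 0 (DEN) and 1 and 2 (CCl4) at day 84. Among all genes, DEN lowered 7.19% and CCl4 33.6% at day 28, against 31.1% (DEN) and 36.3% (CCl4) at day 84. Of the 4 male-predominant genes Cyp2a2, Cyp2c13, Cyp3a2 and Cyp3a18, 0 changed with DEN at day 28 and 3 fell in each other comparison on the percentile scale, against 1, 1 and 2 on the spike-in scale. Among 9 tested genes classically induced through CAR or PXR, the counts of rises and falls were 1 and 1 with DEN and 1 and 6 with CCl4 at day 28, and 1 and 5 with each compound at day 84. On the spike-in scale these were 1 and 0, 1 and 1, 1 and 1, and 2 and 3 in the order DEN and CCl4 at day 28, DEN and CCl4 at day 84. Of 3 tested genes induced through the aryl hydrocarbon receptor, Cyp1a2 fell as given above, nothing is read from the Cyp1b1 call, and Cyp2s1 was not called on the percentile scale. With CCl4 on each day, Cyp1b1 and Cyp2s1 were called higher and 0 of the 3 lower on the spike-in scale. The Cyp1b1 probe was not detected on any CCl4 or control array of day 28, so nothing is read from its calls on that scale either. These lists overlap with each other and were drawn from the 33 genes.

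The compounds were then compared with each other at the same day, 33 genes a day, with p-values adjusted over all genes. At day 28, 3 genes were higher and 15 lower with CCl4 than with DEN, beside 20.4% and 24.7% of all genes. Relative to spike-ins these counts were 7 and 9. Cyp2c24 was higher by 3.69 (95% interval 3.12 to 4.26, adjusted p = 5.74e-07), Cyp2c12 by 0.94 (0.60 to 1.29) and Cyp2j4 by 0.69 (0.51 to 0.88). The 5 genes of the 2D subfamily were lower with CCl4 by 0.89 to 1.66 and stayed so on the spike-in scale. Cyp2f4 was lower by 0.87 ± 0.13, Cyp2j3 by 1.08 ± 0.20 and Cyp2c23 by 0.79 ± 0.15 (adjusted p = 1.29e-04, 6.14e-04 and 7.41e-04). On the spike-in scale Cyp2f4 (-0.47) and Cyp2j3 (-0.69) stayed called, and Cyp2c23 (-0.40), Cyp2a1 (-0.41), Cyp2t1 (-0.23), Cyp2c7 (-1.03), Cyp2c6v1 (-0.16) and Cyp2b3 (-0.00063) did not. For Cyp3a62 the difference was -0.43 with an interval of -1.04 to 0.18, and for Cyp1a2 -0.82 with an interval of -1.59 to -0.047. The Cyp3a9 difference of -2.49 was -1.09 and not called without the low CCl4 array, and those of Cyp2c7, Cyp2c6v1, Cyp2a2 and Cyp2b3 were also lost without it, at -0.63, -0.29, -0.63 and -0.17.

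At day 84, 1 gene was higher and 3 lower with CCl4, beside 18.5% and 15.8% of all genes, and relative to spike-ins these counts were 1 and 5. Cyp2f4 was lower by 0.72 (interval -0.99 to -0.45, adjusted p = 7.32e-04), Cyp2d4 by 1.01 (-1.65 to -0.38) and Cyp2c12 by 0.53 (-0.87 to -0.18). The 1 higher gene, Cyp1b1, was at least 1.32-fold higher, over DEN values not well above background. It entered the test only through this CCl4 group, so its call is a description. Within slide 2, which held 1 of the CCl4 arrays, Cyp2f4 kept its call (-0.89) and the other 3 genes lost theirs. The Cyp2d4 call was lost without replicate 1 or 3 of DEN, and that of Cyp2c12 without replicate 2 of DEN or replicate 2 or 3 of CCl4, and on the spike-in scale (-0.68). Cyp2c24 differed by -0.31 with an interval of -0.88 to 0.26, and Cyp3a62 by -0.56 with an interval of -1.17 to 0.051. With both low arrays left out, 1 gene was higher and 10 lower.

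**Figure D4:**
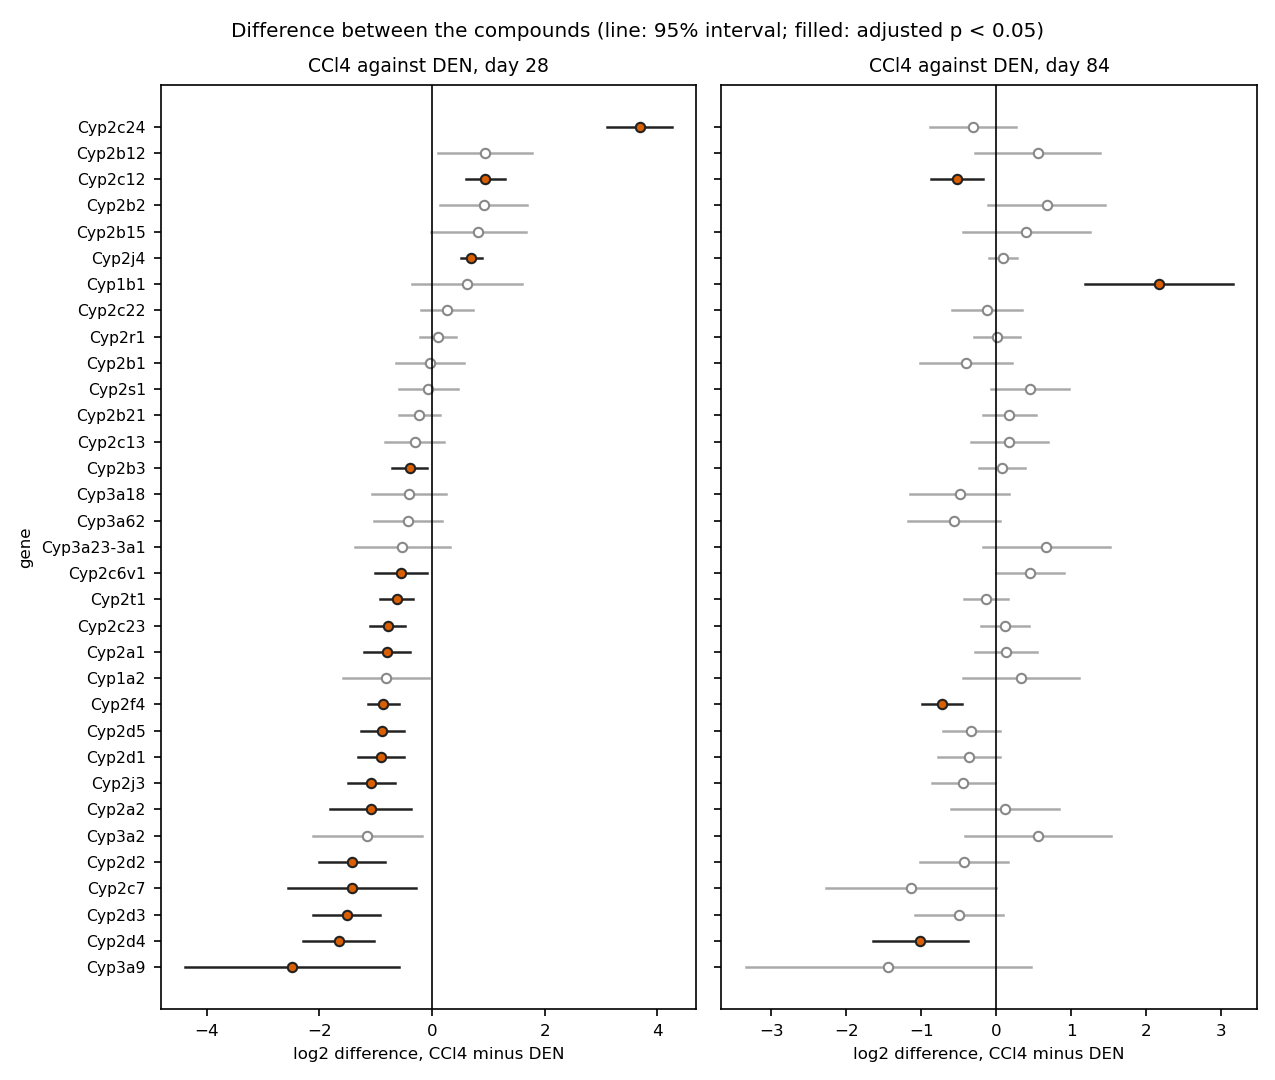
Log2 difference between CCl4 and DEN for the 33 P450 genes at day 28 (left) and day 84 (right), ordered by the day 28 value, with 95% intervals as lines. Filled points have an adjusted p under 0.05. At day 28 Cyp2c24 lies at 3.69 and the 2D genes between -0.89 and -1.66, and at day 84 the Cyp2c24 interval spans 0.

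The difference between treated and control was also compared between the days. The DEN effect was larger at day 84 for Cyp2c24 by 5.47 ± 0.38 (adjusted p = 1.23e-06), or by 3.38 when the undetected day 84 controls are set at the lowest detected signal. It was larger for Cyp2c12 by 1.75 ± 0.23 (adjusted p = 4.0e-04). For Cyp2f4 it was lower by 0.70 ± 0.18 and for Cyp2j4 higher by 0.46 ± 0.12 (adjusted p = 0.0199 and 0.0244). These were the 3 higher and 1 lower of 33 genes, beside 7.64% and 8.41% of all genes. The Cyp2f4 call was lost on the spike-in scale (-0.40), where the other 3 stayed, and without replicate 1 of the day 84 controls or replicate 2 of DEN at day 84, and that of Cyp2j4 without any 1 of 6 arrays. For CCl4 the Cyp2c24 effect was larger at day 84 by 1.47 ± 0.38 (adjusted p = 0.0348), the 1 higher and 0 lower of the 33 genes beside 3.51% and 2.52% of all genes. At the bound for the day 84 controls this value was -0.62, with normexp background correction -0.37 and with the second probe -0.33, so its direction turned, and the call was lost without any 1 of 9 arrays and on the spike-in scale (1.22).

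Controls themselves differed between the days in 4 genes, all lower at day 84, beside 5.32% of all genes called lower and 4.44% called higher. Cyp2b2 was lower by 1.66 ± 0.36, Cyp2c12 by 0.57 ± 0.16 and Cyp2t1 by 0.51 ± 0.14 (adjusted p = 0.0111, 0.0386 and 0.0312). Cyp2c24 was lower by 2.14 ± 0.27 (adjusted p = 3.76e-04), or at least 1.04-fold. Its probe was detected in 1 of 3 controls at day 28 and in 0 of 3 at day 84, so most of these signals were near background. The control arrays of the days were on different slides, so day and slide cannot be told apart in this comparison. The Cyp2c12 call was lost without any 1 of 6 arrays and the Cyp2t1 call without any 1 of 5, and both on the spike-in scale (-0.44 and -0.38).

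The transcription factors and receptors that control P450 genes were mostly lower on the percentile scale. Of 22 listed regulators 20 were tested, and at day 28 DEN lowered 9 and CCl4 15, beside 7.19% and 33.6% of all genes. At day 84 DEN lowered 12 and CCl4 13, beside 31.1% and 36.3% of all genes. The only rise was Foxa2 with CCl4 at day 28. Their median differences were -0.41, -1.03, -0.60 and -0.59 on the percentile scale, beside -0.04, -0.06, -0.08 and -0.10 over all genes. On the spike-in scale 2, 6, 2 and 6 fell and 4, 5, 6 and 4 rose with DEN and CCl4 at day 28 and DEN and CCl4 at day 84. Hnf4a, the hepatocyte nuclear receptor, differed by -0.67 (DEN) and -1.47 (CCl4) at day 28 and by -0.61 and -1.03 at day 84, all called (adjusted p from 1.05e-06 to 0.00479). Nr3c1, the glucocorticoid receptor, differed by -0.84, -1.46, -0.98 and -0.96 in that order, all called. Ahr differed by -1.92 with CCl4 at day 28 and by -0.57 to -0.65 in the other comparisons, all called. These values are on the percentile scale. The spike-in scale adds 0.41 (DEN) and 0.80 (CCl4) to them at day 28 and 0.70 and 0.55 at day 84. With DEN at day 84 this is more than the falls of Hnf4a and Ahr, which turn positive there. PXR and CAR are given as the receptors of the lists above, and they and Foxa2 were chosen after their values were seen. PXR (Nr1i2) fell by 1.14 and CAR (Nr1i3) by 1.04 with CCl4 at day 28. With DEN at day 84 their differences of -0.099 and 0.43 were not called.

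Of 15 redox partners and enzymes of haem supply, CCl4 lowered 10 and raised 0 at day 28 on the percentile scale, where 33.6% of all genes were called lower. DEN lowered 2 at day 28, beside 7.19% of all genes. At day 84, DEN lowered 5 and raised 4, beside 31.1% and 21.6% of all genes. CCl4 lowered 8 and raised 1 at that day, beside 36.3% and 28.0%. Relative to spike-ins the rises and falls were 3 and 2 (DEN) and 4 and 2 (CCl4) at day 28, then 10 and 0 (DEN) and 5 and 1 (CCl4) at day 84. The medians of -0.18, -0.61, -0.14 and -0.32 were 0.23, 0.19, 0.56 and 0.23 on the spike-in scale. Alas1, the rate-limiting enzyme of haem synthesis, fell by 1.32 with DEN and 1.75 with CCl4 at day 28 (adjusted p = 0.00304 and 3.57e-05). Por, the reductase of the microsomal P450 enzymes, differed by -0.76 with CCl4 at day 28 and by 0.69 with DEN at day 84, both called. The spike-in scale adds 0.80 to the CCl4 value of Por, which turns positive there. Cyb5r3, the reductase of cytochrome b5, was called lower in all 4 comparisons, by 0.96 to 1.49.

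**Figure D5:**
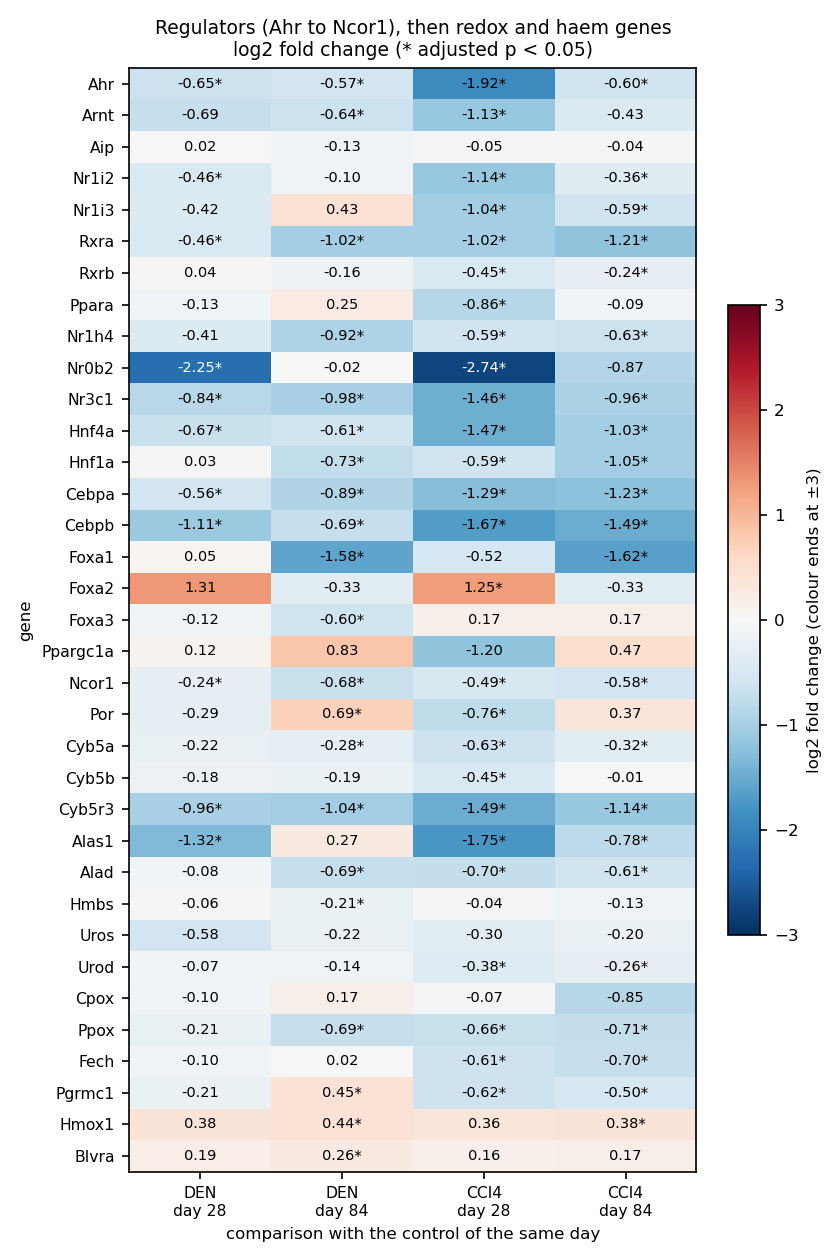
Log2 differences from the control of the same day for 20 regulators of P450 genes (Ahr to Ncor1) and 15 redox and haem genes (Por to Blvra) in the 4 treated groups, with an asterisk at an adjusted p under 0.05. Blue cells, lower than control, fill most of the CCl4 day 28 column, and Por is -0.76 there and 0.69 with DEN at day 84.

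Of 13 tested targets of CAR and PXR that are not family 1 to 3 P450 genes, 5 rose and 1 fell with DEN at day 28 and 7 rose and 2 fell at day 84. With CCl4, 4 rose and 6 fell at day 28 and 5 rose and 5 fell at day 84. These counts of rises and falls were 6 and 0 (DEN) and 7 and 3 (CCl4) at day 28, then 11 and 1 (DEN) and 7 and 2 (CCl4) at day 84, on the spike-in scale. Aldh1a1, Ephx1 and Akr7a3 were called higher in all 4 comparisons, by 2.37 to 3.58, by 1.0 to 2.26 and by 1.25 to 4.33. Among 4 tested targets of the aryl hydrocarbon receptor, the counts of rises and falls were 1 and 1 with DEN and 2 and 0 with CCl4 at day 28, then 2 and 0 with DEN and 2 and 1 with CCl4 at day 84. Relative to spike-ins 0 of the 4 fell in any comparison, and 2, 3, 4 and 2 rose in the same order. The aldehyde dehydrogenase Aldh3a1 rose by 7.12 with DEN at day 84 (adjusted p = 5.61e-10) and differed by 0.037 with CCl4. Nqo1, a quinone reductase, rose by 1.26 with CCl4 at day 28 and by 4.91 and 2.31 with DEN and CCl4 at day 84. Of 19 other phase I oxidoreductases, 3 rose and 3 fell with DEN and 5 rose and 10 fell with CCl4 at day 28, and 6 rose and 5 fell with DEN and 7 rose and 6 fell with CCl4 at day 84. Relative to spike-ins 6, 9, 12 and 9 of these rose and 1, 6, 1 and 5 fell. The 25 tested P450 genes of other families gave 3 rises and 1 fall with DEN and 6 and 11 with CCl4 at day 28, and 6 and 13 with DEN and 6 and 11 with CCl4 at day 84. Relative to spike-ins 7, 12, 9 and 12 rose and 0, 4, 2 and 7 fell. On the percentile scale, 7.82%, 26.1%, 21.6% and 28.0% of all genes were called higher in the same order. Shares called lower were 7.19%, 33.6%, 31.1% and 36.3%.

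Cell type markers moved beside the P450 genes, and their part in the P450 results was not tested. Of 13 hepatocyte markers, DEN lowered 2 and CCl4 13 at day 28, and at day 84 they lowered 12 and 11, with medians of -0.29, -0.89, -0.66 and -0.56 beside -0.35, -0.90, -0.72 and -0.71 for the P450 genes. Relative to spike-ins, 0, 3, 0 and 2 of them fell and 1, 2, 1 and 2 rose. Of 11 pericentral hepatocyte markers, 2 rose and 1 fell with DEN and 3 rose and 4 fell with CCl4 at day 28, and 1 rose and 8 fell with DEN and 3 rose and 3 fell with CCl4 at day 84. Scaled to the spike-ins, 5, 7, 1 and 5 of these rose and 1, 1, 3 and 1 fell in the same order. Of 12 stellate cell markers, DEN raised 1 and CCl4 8 at day 28, and at day 84 they raised 5 and 9, with 0, 1, 1 and 0 falls. Of 9 cholangiocyte markers, 0 and 6 rose at day 28 and 6 and 8 at day 84 with DEN and CCl4, with 0, 0, 1 and 1 falls. With spike-in scaling the stellate cell markers gave 2, 11, 9 and 11 rises, the cholangiocyte markers 2, 9, 8 and 8, and neither list any fall. Rises and falls of 11 macrophage markers were 2 and 0, 3 and 4, 2 and 0, and 3 and 4 with DEN and CCl4 at day 28 and DEN and CCl4 at day 84. In the same order they were 4 and 0, 4 and 2, 0 and 1, and 4 and 2 for 10 lymphocyte markers, and 0 and 0, 2 and 0, 0 and 0, and 5 and 0 for 5 neutrophil markers. They were 2 and 0, 1 and 2, 1 and 4, and 1 and 3 for 7 sinusoidal endothelium markers, and 0 and 0, 0 and 2, 0 and 3, and 2 and 2 for 4 erythroid markers. Scaled to the spike-ins, these counts were 6 and 0, 6 and 2, 8 and 0, and 7 and 3 for macrophage markers. Lymphocyte markers gave 6, 8, 5 and 5 rises, neutrophil markers 1, 4, 2 and 5, and neither list any fall there. Endothelium markers gave 4 and 0, 5 and 0, 4 and 0, and 3 and 1, and erythroid markers 0 and 0, 1 and 1, 1 and 0, and 2 and 0. Of all genes, 7.82%, 26.1%, 21.6% and 28.0% were called higher on the percentile scale in this order. Shares of all genes called lower were 7.19%, 33.6%, 31.1% and 36.3%.

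More than 1 probe was kept for 14 of the 33 genes. Over the 4 treated comparisons, all probes of a gene gave the same sign in 51 of 56 cases, and their range was under 0.25 in 40. Signs differed for Cyp2s1 in 3 comparisons and for Cyp1b1 and Cyp2b2 with DEN at day 84. The largest range, 2.71, was that of the Cyp2c24 probes with CCl4 at day 84. Cyp2b12, Cyp2b15 and Cyp2b21 each had 1 probe detected on all 18 arrays and their other probes on none.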

How the data were processed

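RNA of 18 rat liver samples was hybridised to Agilent 1-colour rat arrays, and the probe annotation refers to the rn4 genome, per the file headers. Deposited scanner files hold spot intensity from Agilent Feature Extraction 10.7.1.1 (per the submitters' processing notes), background-subtracted per the file headers. The authors' deposited value table is a ratio, each intensity over a constant of its array, and gave the same log2 values within 2.06e-06. From the intensity, log2 values minus each array's 75th percentile were computed, control spots and 18 outlier probes were left out, and probes were kept that were well above background on all arrays of at least 1 group. RefSeq accessions named the genes through a GRCr8 table (28206 of 34683 probes with an accession matched), and the brightest probe stood for a gene. limma 3.58.1 in R 4.3.3 fitted 6 group means over 10914 genes, with Benjamini-Hochberg adjustment over all of them and 12 residual degrees of freedom per gene. The number of arrays limits the precision. Members and gene lists were chosen with earlier results of these data known. All members may be named. Values on every array are given for members called at a log2 difference of at least 1 against control, and for Cyp2c24, Cyp1a2 and Cyp2c23. Genes of lists without members are up to 4 called genes with the smallest adjusted p and the first 2 listed. Alternatives were other background correction, filters, scalings, probes, blocks and left-out arrays. Promoters and motifs came from RefSeq (GRCr8). Tests were checked on simulated data.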

Additional observations from a re-analysis of the deposited data

Results flagged for a closer look

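Treatment effects that differed between the days by the test of the difference itself (limma, adjusted over all genes) were found for 4 genes. For Cyp2c24 the DEN effect was larger at day 84 by 5.47 ± 0.38 (adjusted p = 1.23e-06), or by 3.38 when the day 84 controls, none of them well above background, are set at the lowest detected signal. The difference of its CCl4 effects between the days was 1.47 ± 0.38 (adjusted p = 0.0348), but -0.62 at that bound, -0.37 with normexp background correction and -0.33 with the second probe, so its direction is not settled, and the call was lost without any 1 of 9 arrays. For Cyp2c12 the DEN effect was larger at day 84 by 1.75 ± 0.23 (adjusted p = 0.0004). For Cyp2f4 the DEN effect at day 84 differed by -0.70 ± 0.18 (adjusted p = 0.0199), a call lost on the spike-in scale (-0.40), and for Cyp2j4 by 0.46 ± 0.12 (adjusted p = 0.0244). Groups of 3 arrays are too small for a test for single outlying arrays, and the low arrays described above were noted from their values without such a test.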

How the results depend on the processing

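Of 114 called differences of P450 genes, 80 were called whichever single array was left out and 34 were lost without at least 1. Relative to the spike-in probes, signs turned for Cyp2b21 (0.053 with CCl4 at day 28, 0.053 with DEN and 0.076 with CCl4 at day 84), Cyp2b3 (0.076 with DEN and 0.0015 with CCl4 at day 84), Cyp2c6v1 (0.032) and Cyp3a18 (0.041) with CCl4 at day 28, Cyp2j3 with DEN at day 84 (0.21) and Cyp2r1 (0.17 with DEN and 0.030 with CCl4 at day 84). With normexp background correction Cyp1b1 with CCl4 at day 84 was -0.010, and the difference of the CCl4 effects on Cyp2c24 between days was -0.37, or -0.33 with its second probe. For DEN against control at day 28, the 8 calls became 5 with no filter, 4 under quantile normalization, 3 relative to spike-ins, 14 with only the groups compared, 3 within 1 slide and 22 without both low arrays, an alternative chosen after seeing the data. At day 84 the 24 DEN calls became 8 relative to spike-ins. For CCl4 against DEN at day 84, 4 became 1 with the slide as a block, 1 within 1 slide and 11 without both low arrays. The 4 differences of the DEN effect between days became 8 with only the groups compared. The 1 difference of the CCl4 effect became 0 with no filter, the all-array filter, the mean of probes, the second probe, the slide block or only the groups compared, 2 under quantile normalization and 3 without both low arrays. The 4 control differences became 2 with normexp, no filter, quantile normalization or spike-ins, 0 with the slide block, 7 with only the groups compared and 10 without both low arrays. The causes were not tested. Leaving out 1 array gave 3 to 16 calls for DEN and 23 to 26 for CCl4 at day 28, 18 to 26 for DEN and 21 to 27 for CCl4 at day 84, 14 to 20 and 3 to 10 for CCl4 against DEN at days 28 and 84, 2 to 9 and 0 to 2 for the DEN and CCl4 effects between days, and 2 to 10 for the controls. Replicate 2 of CCl4 at day 28 moved counts most: without it DEN at day 28 had 16 calls, CCl4 against DEN at day 84 had 10, the DEN effect 9 and the controls 10.

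Whether same-numbered samples pair was not settled. Their deviations correlated at -0.23 to 0.43, against -0.40 to 0.21 for arrays of different numbers. The correlation was above 0.1 in 6 of 45 pairs of same-numbered arrays, and 9 of 18 arrays had their best partner under their own number. With the replicate number as a block, DEN at day 28 had 5 calls, and no other count moved by over 1.5 times.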
